A study of Mus musculus with 2 samples.

Results

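The 7 integrin chain genes Itga4, Itgb1, Itgb7, Itgae, Itgav, Itgal and Itgb2 were described across the cells of 2 single-cell RNA libraries from mouse tumours, by symbol among 32285 listed genes; each symbol matched 1 gene. One library came from mice with Jmjd1c deleted in regulatory T cells (label JMJD1CTregcKO, here cKO) and 1 from wild-type mice (label JMJD1CWT, here WT), all C57BL/6 and 8 to 12 weeks of age. Jmjd1c encodes a protein with the JmjC domain of histone demethylases. Tregs, the CD4 T cells that need the factor Foxp3 and restrain immune responses, were enriched with magnetic beads from digested tumours and sorted on a fluorescent signal before droplet sequencing of transcript 3′ ends. The sources used here do not give the tumour model, the driver of the deletion, the deleted exons, whether WT mice carried that driver, the sorted signal, or the number of animals in each library.

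Integrins are surface receptors made of 1 alpha and 1 beta chain, and a chain reaches the surface only in such a pair. The alpha 4 chain pairs with beta 1, which gives a receptor for VCAM-1 and fibronectin, and with beta 7, which gives the receptor for the gut vessel ligand MAdCAM-1. The beta 7 chain also pairs with alpha E (CD103), and that receptor binds E-cadherin on epithelium. The alpha V chain pairs with beta 1, 3, 5, 6 or 8 and takes part in release of active TGF-beta, and alpha L with beta 2 forms LFA-1, which binds ICAM-1 when T cells leave vessels and touch other cells.

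The cKO matrix held 4105 barcodes and 37666195 UMIs (unique molecular identifiers, 1 for each captured transcript) and the WT matrix 3905 barcodes and 49063944 UMIs, of which 4026 and 3842 barcodes were kept. With 1 library for each group no test over animals exists, and every interval below is an exact 95% interval for counting error only. Jmjd1c itself stood at 74.1 CPM (UMIs scaled to 1000000 UMIs of the class) in cKO and 88.6 CPM in WT cells of the Treg class defined below. Tags from the 3′ end can lie outside the deleted part, so this level checks neither the deletion nor the labels. Xist, the RNA of the inactive X chromosome, was found in 0.273% of cKO and 97.1% of WT cells, and Y-linked transcripts in 74.6% of cKO and 0 of 3842 WT cells, which allows a share of up to 0.0781%. Sex and genotype therefore cannot be told apart in any difference between the libraries.

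Cells were assigned to classes by UMIs of marker genes that are not integrins. The Treg class needed at least 1 UMI of Cd3e and Cd3g, at least 6 of Foxp3, Il2ra, Ikzf2 and Ctla4, at most 1 of Cd8a and Cd8b1 and at most 2 of Lyz2 and C1qa, and held 2834 cKO and 3240 WT cells with medians of 6427 and 8546 UMIs. All 7 Treg markers read were detected in both libraries, Foxp3 in 34.4% of cKO and 30.9% of WT cells and Ikzf2 in 96.97% and 97.4%. Their levels differed. Ctla4 stood at 2034 CPM in cKO and 1196 CPM in WT, Tnfrsf4 at 3320 and 2201, and Tnfrsf18 at 1587 and 1473. Il2ra stood at 589 CPM in cKO and 456 CPM in WT, and Foxp3 at 58.7 and 37.0. Ikzf2 (1286 and 1374 CPM) and Cd4 (166 and 172 CPM, in 66.5% and 77.0% of cells) were lower in cKO. The 2 CD8 markers of the Treg class summed to 12.7 CPM in cKO and 8.34 CPM in WT, and its 6 monocyte or macrophage markers to 45.7 CPM in cKO and 15.3 CPM in WT. Its 5 NK markers summed to 159 CPM in cKO and 6.19 CPM in WT, most of it Gzma, which 3.46% and 2.41% of cells held, with Ncr1 at 0 in WT. Its 5 dendritic cell markers summed to 667 CPM in cKO and 705 CPM in WT. Most of this was H2-Ab1 (345 CPM in cKO and 281 CPM in WT, in 17.7% and 30.2% of cells) and Ccr7 (312 and 395 CPM). The part of all these markers in the results was not tested. The class with at least 3 UMIs of Cd8a and Cd8b1 held 407 cKO and 213 WT barcodes. The data went against the name CD8 T cell for many of them: 48.6% of the cKO and 84.5% of the WT barcodes also held 6 or more UMIs of the 4 Treg genes, 21.6% and 62.9% held a Cd4 UMI, and the median depth was 10688 and 18131 UMIs. Its 5 dendritic cell markers summed to 389.9 CPM in cKO and 901 CPM in WT, its 6 monocyte or macrophage markers to 89.3 and 26.4 CPM, and its 5 NK markers to 439.6 and 179 CPM; their part in its results was not tested. It is called the Cd8-detected class here. The myeloid class, with at least 10 UMIs of Lyz2 and C1qa, held 321 cKO and 103 WT barcodes. Among these, 3 or more UMIs of Cd3e and Cd3g were present in 23.7% in cKO and 50.5% in WT. The median depth of the myeloid class was 13633 UMIs in cKO and 20622 in WT. In it the 5 dendritic cell markers summed to 4163 CPM in cKO and 5528 CPM in WT, and their part in its results was not tested. The NK class (at least 2 UMIs of Ncr1 and Klrb1c, no Cd3e) held 36 cKO cells and 1 WT cell, so it was compared between libraries for no chain. The libraries shared 2 barcode sequences.

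In the Treg class the alpha 4 chain was far lower in cKO than in WT, the alpha V chain was lower, and the alpha E chain was higher. The beta 7 and beta 2 chains were modestly higher in cKO, beta 1 was modestly lower, and alpha L was close to level. Of the 7 chains, 1 stood at least 2-fold lower in cKO, beside 1.2% of the 8678 genes that averaged 5 CPM or more. None stood at least 2-fold higher, beside 0.991% of those genes, on the scale log2((CPM in cKO + 5)/(CPM in WT + 5)) used for every log2 ratio here, which understates differences of low genes; without the added 5 CPM, Itgae passed 2-fold. The median log2 ratio of the 7 chains was -0.0754, beside -0.0202 for all genes tested.

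**Figure D1:**
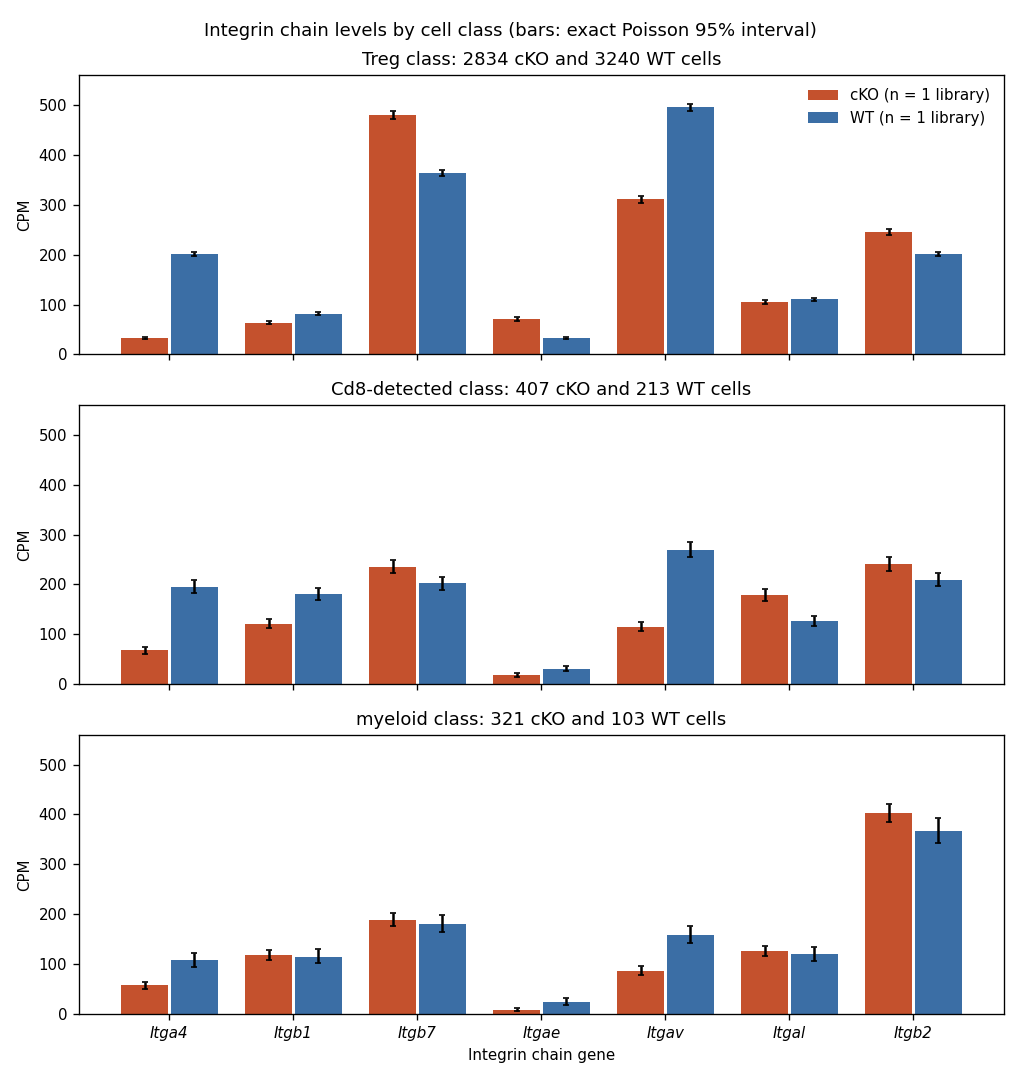
Summed UMIs of each integrin chain gene in CPM (vertical axis) in cKO (left bar) and WT (right bar), with 1 library in each group and exact Poisson 95% intervals, for the Treg, Cd8-detected and myeloid classes. In the Treg class Itga4 stood at 33.1 CPM in cKO and 201 CPM in WT, and Itgae at 70.98 and 33.00 CPM.

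Itga4 encodes the alpha 4 chain (ENSMUSG00000027009, chromosome 2, 79255426 to 79333123, plus strand, mm10; positions from GENCODE M21). In the Treg class it stood at 33.1 CPM (30.8 to 35.5) in cKO and 201 CPM (196 to 205) in WT, from 780 UMIs in cKO and 7656 in WT. The intervals lay far apart, and the cKO level was 16.5% of the WT level. The log2 ratio was -2.43 (interval -2.71 to -2.49) and ranked 5 from the lowest among the 8678 genes. Throughout, the interval is that of the ratio without the added 5 CPM, so it can lie to one side of the log2 ratio itself. In bulk sums over a class, fewer cells with the transcript and less transcript in each cell give the same total, so cells were also compared at equal depth.

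After each cell was thinned to 4000 UMIs, which left out 332 cKO and 95 WT cells of the Treg class, an Itga4 UMI was found in 10.1% (8.92 to 11.3) of cKO and 47.9% (46.1 to 49.6) of WT cells. Cells with 2 or more Itga4 UMIs made up 1.88% in cKO and 20.4% in WT, so cells with several UMIs were also fewer in cKO. The mean at this depth was 0.124 Itga4 UMIs per cell in cKO and 0.812 in WT. A lower mean alone lowers both shares. They therefore do not tell fewer cells with the transcript from less transcript in each cell. Before thinning the shares were 16.1% and 70.9%, at median depths of 6937 and 8718 UMIs for the cells that entered thinning. Itga4 was found in every class examined, so no class here lacks it and the free RNA behind its shares was not measured.

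The beta partners of alpha 4 did not follow it. Itgb7, the beta 7 chain (ENSMUSG00000001281, chromosome 15, 102215995 to 102231944, minus strand), stood at 479 CPM (471 to 488) in cKO and 364 CPM (358 to 369.9) in WT, with a log2 ratio of 0.39 (interval 0.36 to 0.43). At 4000 UMIs it was found in 81.5% (79.96 to 83.04) of cKO and 76.8% (75.3 to 78.3) of WT cells, and before thinning in 90.6% and 92.4%, where the order was the other way round and WT cells were deeper. Itgb1, the beta 1 chain (ENSMUSG00000025809, chromosome 8, 128685654 to 128733200, plus strand), stood at 63.5 CPM (60.4 to 66.9) in cKO and 81.3 CPM (78.5 to 84.2) in WT, with a log2 ratio of -0.33 (interval -0.45 to -0.27), and was found in 18.9% (17.4 to 20.5) of cKO and 25.9% (24.4 to 27.5) of WT cells at 4000 UMIs. Itgb1 was thus lower in cKO by a far smaller step than Itga4, and Itgb7 was higher.

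The bases directly upstream of the annotated RefSeq starts of Itga4 and Itgb7 are shown because these 2 chains of 1 receptor stood on opposite sides between the libraries. They are from the RefSeq promoter table (GRCm38.p6), which matched 4 of the 7 chains, as 250 bases written 5′ to 3′ along the gene's strand, chr2:79255176-79255425 (plus strand) for Itga4 and chr15:102231936-102232185 (minus strand) for Itgb7. Capitals mark the RUNX core TGTGGT and the CACCC box, which KLF factors bind, each searched on both strands (as ACCACA and GGGTG on the other).
Itga4: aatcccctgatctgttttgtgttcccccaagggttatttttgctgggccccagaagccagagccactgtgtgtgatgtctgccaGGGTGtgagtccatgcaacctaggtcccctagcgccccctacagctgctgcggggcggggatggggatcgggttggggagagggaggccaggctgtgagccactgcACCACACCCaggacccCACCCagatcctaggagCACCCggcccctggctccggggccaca
Itgb7: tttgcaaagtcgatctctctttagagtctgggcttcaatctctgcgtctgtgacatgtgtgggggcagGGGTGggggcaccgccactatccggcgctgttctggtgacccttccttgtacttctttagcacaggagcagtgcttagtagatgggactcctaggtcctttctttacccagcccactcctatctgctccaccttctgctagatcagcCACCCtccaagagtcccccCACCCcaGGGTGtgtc
The Itga4 window held 1 RUNX core, which overlaps 1 of its 4 CACCC boxes, and the Itgb7 window held 4 CACCC boxes and no match to these RUNX letters. Among 32851 windows of this length, 14.05% held the RUNX letters, 52.01% the CACCC letters and 7.22% both. A match of letters describes the window and is not a site of binding, and the part of such matches in the level of either chain was not tested.

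Itgae encodes alpha E (ENSMUSG00000005947, chromosome 11, 73090583 to 73147446, plus strand), the other alpha partner of beta 7. In the Treg class it stood at 70.98 CPM (67.6 to 74.5) in cKO and 33.00 CPM (31.2 to 34.9) in WT, from 1671 UMIs in cKO and 1258 in WT. The cKO level was 2.15 times the WT level (1.998 to 2.32), and its log2 ratio of 0.9998 with the added 5 CPM ranked 87 from the highest, just short of the 2-fold mark. At 4000 UMIs, Itgae was found in 21.5% (19.9 to 23.2) of cKO and 11.1% (9.99 to 12.2) of WT cells, and before thinning in 30.98% and 19.3%. Cd8-detected barcodes with fewer than 6 UMIs of the Treg genes, thinned alike, held Itgae in 0 of 192 cKO and 0 of 32 WT cells, which allows shares of up to 1.56% and 9.38%, at median depths of 8256 and 14224 UMIs before thinning. The Treg share was far above this limit in cKO. In WT few cells set the limit, and the exact interval for 0 of 32 cells, up to 10.9%, overlapped that of the Treg share.

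Itgav encodes alpha V (ENSMUSG00000027087, chromosome 2, 83724397 to 83806916, plus strand). In the Treg class it stood at 311 CPM (304 to 318) in cKO and 495 CPM (488 to 502) in WT, from 7317 UMIs in cKO and 18873 in WT, a log2 ratio of -0.66 (interval -0.71 to -0.63) that ranked 261 from the lowest. It was found in 66.1% (64.3 to 68.00) of cKO and 80.4% (78.98 to 81.8) of WT cells at 4000 UMIs, and 3 or more UMIs were held by 18.9% of cKO and 38.6% of WT cells. Cells with several Itgav UMIs were thus fewer in cKO as well. The mean was 1.39 Itgav UMIs per cell in cKO and 2.39 in WT, and a lower mean alone lowers these shares.

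The chains of LFA-1 differed little between the libraries. Itgal, alpha L (ENSMUSG00000030830, chromosome 7, 127296260 to 127335138, plus strand), stood at 105 CPM (101 to 109) in cKO and 111 CPM (107 to 114) in WT, with a log2 ratio of -0.075 (interval -0.15 to -0.0068), and was found in 34.1% (32.3 to 36.03) of cKO and 34.1% (32.4 to 35.7) of WT cells at equal depth. Itgb2, beta 2 (ENSMUSG00000000290, chromosome 10, 77530252 to 77565708, plus strand), stood at 245 CPM (239 to 252) in cKO and 201 CPM (197 to 206) in WT, with a log2 ratio of 0.28 (interval 0.24 to 0.34), and was found in 61.1% (59.1 to 62.99) of cKO and 52.3% (50.5 to 54.03) of WT cells. Before thinning its shares were 74.2% and 77.6%, in the other order. Beta 2 was thus modestly higher in cKO at equal depth while alpha L was not.

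**Figure D2:**
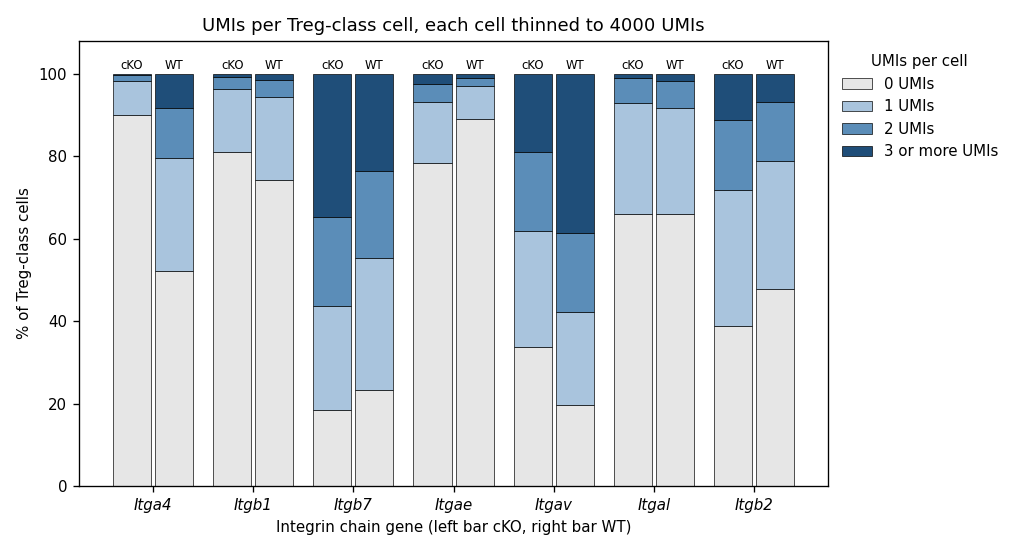
Share of Treg-class cells (vertical axis, %) with 0, 1, 2 or at least 3 UMIs of each chain after thinning every cell to 4000 UMIs, with cKO as the left and WT as the right bar of each pair (2502 cKO and 3145 WT cells). Cells with no Itga4 UMI made up 89.9% in cKO and 52.1% in WT, and cells with no Itgal UMI 65.9% and 65.9%.

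Cells with both chains of a pair were counted at the same depth, since a receptor needs both. Itga4 with Itgb7, the chains of alpha 4 beta 7, were found together in 7.79% (6.77 to 8.91) of cKO and 36.2% (34.5 to 37.9) of WT cells. Itga4 with Itgb1 were found together in 2.68% (2.08 to 3.39) of cKO and 12.7% (11.5 to 13.9) of WT cells. Itgae with Itgb7, the chains of the E-cadherin receptor, went the other way, at 18.5% (17.04 to 20.1) of cKO and 9.13% (8.14 to 10.2) of WT cells. Itgav with Itgb1 were found together in 11.6% (10.3 to 12.9) of cKO and 20.5% (19.1 to 22.00) of WT cells, and Itgal with Itgb2 in 22.1% (20.5 to 23.8) of cKO and 18.98% (17.6 to 20.4) of WT cells. At this depth none of these intervals overlapped between the libraries, those of Itgal with Itgb2 by little. When cells were thinned to 2500 UMIs that pair stood at 10.7% in cKO and 10.2% in WT, and Itga4 with Itgb7 at 3.87% and 21.6%. Transcripts of both chains in a cell do not show that the receptor was on its surface. A share with both chains depends on the share with each chain, and the share expected from the single chains was not calculated. These differences between the libraries are therefore not separate from those of the single chains.

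Among cells with an Itgb7 UMI, the alpha chain found beside it differed between the libraries. Itga4 without Itgae was found in 8.33% of 2040 such cKO cells and in 42.2% of 2415 WT cells. Itgae without Itga4 was found in 21.5% of the cKO and 6.92% of the WT cells, both in 1.23% and 4.97%, and neither in 68.9% and 45.9%. In cKO, Itgae was therefore the more often detected alpha chain beside beta 7, and in WT it was Itga4. With or without the other alpha chain, Itga4 was found in 9.56% of these cKO and 47.2% of these WT cells. Over the whole thinned Treg class it was found in 10.1% and 47.9%. Itgae was found in 22.7% and 11.9% of these cells, beside 21.5% and 11.1% of the class. The shares beside beta 7 thus lay close to those of the whole class. Among cells with an Itgb1 UMI, both Itga4 and Itgav were found in 8.88% of 473 cKO and 40.05% of 814 WT cells, and Itgav alone in 52.2% and 39.3%.

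Within a library, having an alpha chain went with small differences in the share of cells that held the beta chain. In cKO, Itgb1 was found in 26.6% (21.2 to 32.5) of cells with and 18.04% (16.5 to 19.7) of cells without Itga4. In WT it was found in 26.5% (24.3 to 28.8) of cells with and 25.3% (23.2 to 27.5) of cells without Itga4. Itgae itself was found in 10.7% (7.18 to 15.2) of cells with and 22.8% (21.04 to 24.5) of cells without Itga4 in cKO, and in 9.96% (8.49 to 11.6) of cells with and 12.1% (10.5 to 13.8) of cells without Itga4 in WT. The Itga4-detected cells of cKO thus held Itgae less often and Itgb1 more often than the other cKO cells, with intervals that did not overlap, while both pairs of intervals in WT overlapped. For Itgb2, the shares were 64.9% (61.6 to 68.1) of cells with and 59.1% (56.7 to 61.5) of cells without Itgal in cKO and 55.7% (52.7 to 58.7) of cells with and 50.5% (48.3 to 52.7) of cells without Itgal in WT. Itgb7 was found in 86.1% of cells with and 80.3% without Itgae in cKO, and in 82.5% and 76.1% in WT, with intervals apart. The other pairs went the other way, with overlapping intervals. Itgb7 was found in 77.4% of cells with and 82.0% without Itga4 in cKO, and in 75.6% and 77.9% in WT. Itgb1 was found in 17.5% of cells with and 21.7% without Itgav in cKO, and in 25.5% and 27.3% in WT. Cells share a library and an animal source, so these intervals do not measure how far animals differ.

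**Figure D3:**
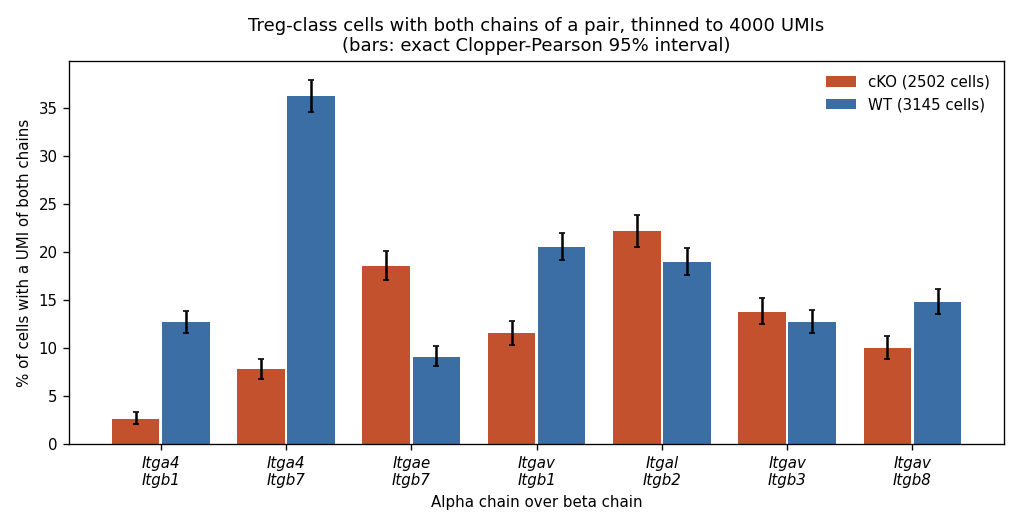
Share of Treg-class cells (vertical axis, %) with a UMI of both the alpha chain (upper name) and the beta chain (lower name) after thinning to 4000 UMIs, cKO left of WT, with exact Clopper-Pearson 95% intervals. Itga4 with Itgb7 reached 7.79% in cKO and 36.2% in WT, and Itgae with Itgb7 18.5% and 9.13%.

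Other integrin genes were read for further partners of alpha V. Itgb8, whose chain pairs with alpha V in the receptor that frees TGF-beta at the surface of Tregs, stood at 42.1 CPM (39.5 to 44.8) in cKO and 44.1 CPM (41.98 to 46.2) in WT in the Treg class (log2 ratio -0.060). Itgb3, the other main beta partner detected, stood at 55.8 CPM (52.8 to 58.9) in cKO and 37.9 CPM (35.9 to 39.9) in WT (log2 ratio 0.50). Together with Itgav, Itgb8 was found in 10.03% (8.88 to 11.3) of cKO and 14.8% (13.6 to 16.1) of WT cells at 4000 UMIs, and Itgb3 in 13.8% (12.5 to 15.2) and 12.8% (11.6 to 13.97). At this depth Itgb8 itself was found in 13.8% of cKO and 16.6% of WT cells, and Itgb3 in 20.3% and 15.1%. Cells with Itgav and Itgb8 were thus fewer in cKO, and for Itgav with Itgb3 the intervals overlapped. Both pairs were added after the values were seen. Of the 20 other integrin genes, 5 averaged 5 CPM or more in the Treg class and none was 2-fold apart; their log2 ratios ran between -0.25 for Itga3 and 0.51 for Itga1, the alpha 1 collagen receptor chain, with the laminin receptor chain gene Itga6 at 0.032. Itgax, the alpha X chain, reached 5.06 CPM in cKO and 3.54 CPM in WT.

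The levels were then read within subsets of the Treg class, to see whether the differences held in cells of different states. The subsets were cycling cells (Mki67 and Top2a with 2 or more UMIs in sum) and the rest, and cells with and without a UMI of Gzmb (granzyme B), Il1rl1 (the interleukin-33 receptor), S1pr1 (the receptor for exit along sphingosine-1-phosphate), Itgae or Itga4. Their sizes differed between the libraries: Gzmb was found in 2496 of 2834 cKO and 1357 of 3240 WT cells, Il1rl1 in 817 and 553, and 354 cKO and 684 WT cells were cycling. Each split divided the same Treg-class cells of the same 2 libraries, so counts of subsets are not counts of independent results. Itga4 was at least 2-fold lower in cKO in 10 of 10 subsets, with log2 ratios between -3.10 in cells with Itgae and -1.79 in cells without Gzmb. Among cells with Itgae, Itga4 stood at 20.6 CPM (17.5 to 24.05) in cKO and 215 CPM (205 to 225) in WT. Among cells without Gzmb, it stood at 59.3 CPM (50.3 to 69.5) in cKO and 217 CPM (211 to 224) in WT, so the difference was smaller there but still far outside counting error.

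Itgav was lower in cKO in all 12 of 12 subsets, between -1.09 in cells without Gzmb and -0.48 in cells with Gzmb. Itgb7 was higher in all 12 of 12 (0.12 to 0.63), most in cells with S1pr1, where it stood at 515 CPM (492 to 539) in cKO and 331 CPM (316 to 347) in WT. Itgae was higher in all 10 of 10 by sign (0.17 to 1.16). In cells with Itga4, however, Itgae stood at 34.6 CPM (29.8 to 39.8) in cKO and 30.1 CPM (28.2 to 32.1) in WT, a log2 ratio of 0.17 (interval -0.032 to 0.43) that counting error spans. In cells without Itga4 it stood at 82.1 CPM (77.95 to 86.4) in cKO and 45.2 CPM (40.5 to 50.4) in WT.

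Itgb1 was lower in 11 of 12 subsets and higher in 1, the cells without Gzmb, at 114 CPM (102 to 128) in cKO and 87.4 CPM (83.5 to 91.5) in WT. In cells with Itga4 its interval spanned no difference (-0.014, interval -0.16 to 0.13). Itgb2 was higher in 10 of 12, with cells without Gzmb (-0.057, interval -0.20 to 0.080) and cells with S1pr1 (-0.0074, interval -0.15 to 0.13) as the exceptions, and Itgal lay between -0.26 and 0.019. Whether a gene is detected depends on depth, which was greater in WT, so such subsets do not hold cells of matching depth.

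**Figure D4:**
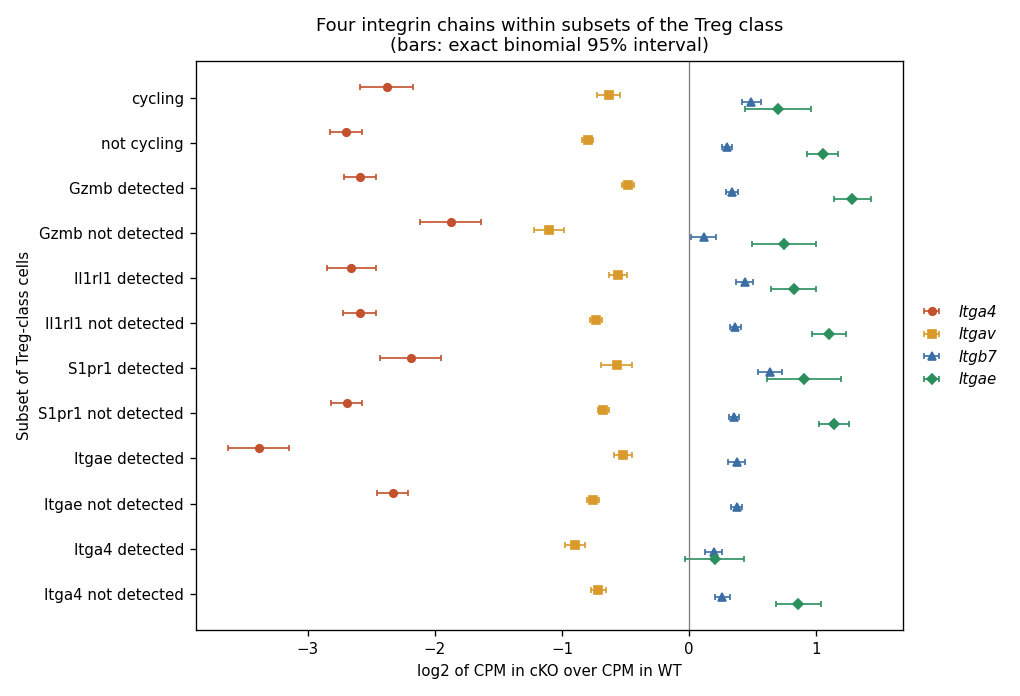
Log2 of the CPM in cKO over the CPM in WT (horizontal axis, without the added 5 CPM) for Itga4, Itgav, Itgb7 and Itgae in subsets of the Treg class (vertical axis), with exact binomial 95% intervals. Itga4 and Itgav lie left of 0 in all their subsets, and Itgb7 and Itgae right of 0, except that the interval of Itgae spans 0 in cells with Itga4.

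In the Cd8-detected class, Itga4 and Itgav were at least 2-fold lower in cKO, 2 of 7 chains beside 2.55% of 8746 genes, and no chain was 2-fold higher, beside 0.686%. The median log2 ratio was -0.55 for the 7 chains and -0.040 for those genes. Itga4 stood at 67.9 CPM (60.97 to 75.4) in cKO and 196 CPM (183 to 209) in WT (log2 ratio -1.46). Itgav stood at 115 CPM (106 to 125) in cKO and 270.0 CPM (255 to 286) in WT (-1.19). Without the barcodes that also held 6 or more UMIs of the Treg genes, 209 cKO and 33 WT barcodes were left, and Itga4 stood at 96.3 CPM (82.9 to 111) in cKO and 198 CPM (158 to 245) in WT (-1.005, interval -1.42 to -0.65). In the whole class, barcodes of 5000 to 10000 UMIs (156 in cKO and 27 in WT) held Itga4 at 102 CPM (84.4 to 122) in cKO and 123 CPM (81.6 to 177) in WT (-0.26, interval -0.87 to 0.38), a difference within counting error. Itgav was still lower there in cKO (-1.17, interval -1.74 to -0.67) and Itgae took the place of Itga4 among the chains 2-fold lower (-2.54, interval -4.29 to -1.91; 11 UMIs in cKO and 18 in WT). With equal weight for each barcode 3 chains were 2-fold lower, Itgae among them (-1.21). The difference in Itgav was gone without the barcodes that held Treg UMIs, at 39.04 CPM (30.7 to 48.9) in cKO and 37.8 CPM (21.6 to 61.3) in WT (0.042, interval -0.74 to 0.93). Itgae was nearly absent without them, with 3 UMIs in cKO and 2 in WT, while over the whole class it had stood at 18.6 CPM (15.04 to 22.7) in cKO and 31.1 CPM (26.1 to 36.6) in WT.

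Alpha L ran the other way in the Cd8-detected class. Itgal stood at 178 CPM (167 to 190.2) in cKO and 127 CPM (117 to 138) in WT (log2 ratio 0.47), and at 196 CPM (177 to 217) in cKO and 146 CPM (112 to 188) in WT (0.41, interval 0.033 to 0.84) without the barcodes that held Treg UMIs. Itgb1 stood at 122 CPM (112 to 132) in cKO and 180.4 CPM (168 to 193) in WT, with a log2 ratio of -0.55 that became -0.16 (interval -0.56 to 0.24) in the smaller set. The log2 ratios of Itgb7 and Itgb2 were 0.22 and 0.20, and 0.44 (interval 0.043 to 0.88) and -0.039 (interval -0.36 to 0.29) in the smaller set. In that set Cd4 stood at 11.5 CPM in cKO and 146 CPM in the 33 WT barcodes, which also held less Cd3e (839 CPM in cKO and 286 CPM in WT), so the libraries did not contribute like cells to it. The part of this in the chains' values was not tested.

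In the myeloid class, Itgae was the 1 chain at least 2-fold lower in cKO, beside 0.981% of 8559 genes, and no chain was 2-fold higher, beside 0.935%. The median log2 ratio was 0.036 for the 7 chains and -0.017 for those genes. The Itgae value rested on barcodes with T cell transcripts: over the whole class Itgae stood at 9.17 CPM (6.66 to 12.3) in cKO and 25.4 CPM (19.4 to 32.8) in WT, and without barcodes holding 3 or more UMIs of Cd3e and Cd3g it had 5 UMIs in cKO and 0 in WT, over 245 and 51 barcodes. Itga4 was lower in cKO in both settings, at 57.7 CPM (51.1 to 64.9) in cKO and 108 CPM (94.8 to 122) in WT (-0.85) and, without those barcodes, at 62.5 CPM (54.2 to 71.6) in cKO and 87.7 CPM (69.99 to 109) in WT (-0.46, interval -0.86 to -0.11). Itgav stood at 87.3 CPM (79.2 to 96.1) in cKO and 159 CPM (144 to 177) in WT (-0.83) and then at 50.6 CPM (43.3 to 58.9) in cKO and 64.8 CPM (49.7 to 83.03) in WT (-0.33, interval -0.78 to 0.090), where the interval spans no difference. The log2 ratio of Itgb7 was 0.062 and, without those barcodes, 0.83 (interval 0.51 to 1.24), at 141 CPM (128 to 154) in cKO and 77.3 CPM (60.7 to 97.05) in WT. Itgb2 stood at 403 CPM (385 to 421) in cKO and 367 CPM (343 to 392) in WT (0.13), Itgb1 at a log2 ratio of 0.036 (interval -0.17 to 0.25) and Itgal at 0.068 (interval -0.14 to 0.28). In barcodes of 5000 to 10000 UMIs, of which the class held 64 in cKO and 7 in WT, Itga4 stood at 89.2 CPM (65.05 to 119) in cKO and 95.7 CPM (31.1 to 223) in WT (-0.097, interval -1.43 to 1.59) and the log2 ratio of Itgav was -0.022 (interval -1.50 to 1.92), so neither difference was detectable at matched depth. In the Cd8-detected and myeloid classes, lower Itga4 in cKO was therefore not detectable in barcodes of this depth, of which WT gave few. Without barcodes holding transcripts of another class it was outside counting error in both (-1.005 and -0.46). Barcodes in no class were not read at this depth. The difference between classes was not tested, and none has a replicate.

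**Figure D5:**
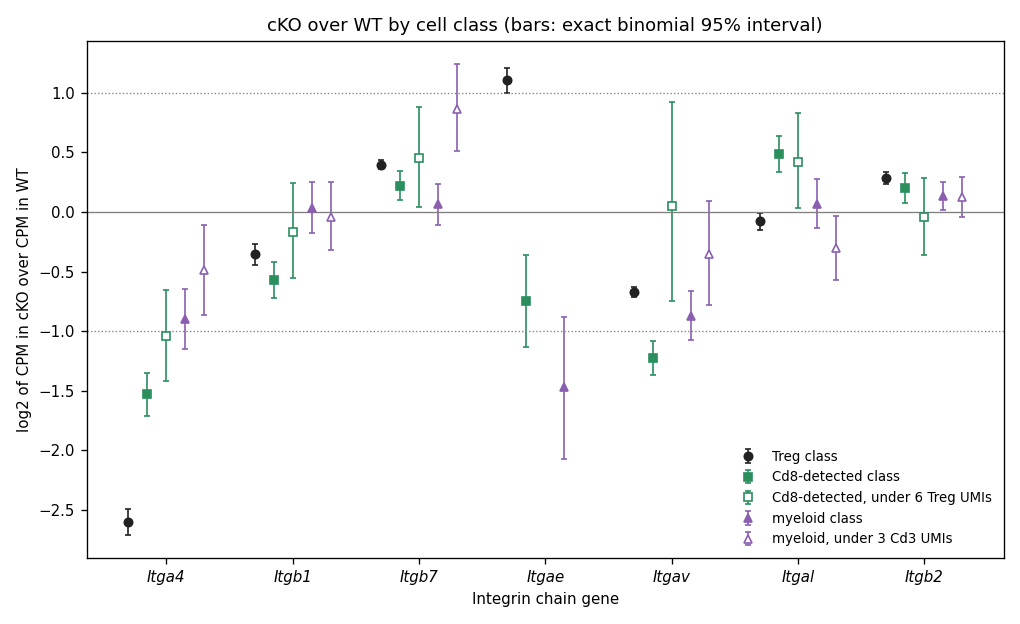
Log2 of the CPM in cKO over the CPM in WT (vertical axis, without the added 5 CPM) for each chain by class, with exact binomial 95% intervals; open symbols leave out barcodes with transcripts of another class, and chains with under 4 UMIs in either library are not drawn. Itga4 lies below 0 in all 5 sets, while Itgav moves to 0 in the Cd8-detected class without Treg UMIs.

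Among the Treg, Cd8-detected and myeloid classes the chains had different places. In both libraries Itgav and Itgb7 stood highest in the Treg class, with intervals apart from those of the other 2 classes. Over whole classes Itgav was higher in the Cd8-detected than in the myeloid class in both libraries. Without the barcodes that held transcripts of another class it was 39.04 CPM in the Cd8-detected and 50.6 CPM in the myeloid class of cKO, and 37.8 and 64.8 CPM in WT, with overlapping intervals. Itgb1 was lowest in the Treg class in both libraries. Itgal was highest in the Cd8-detected class in cKO, then in the myeloid and the Treg class. In WT it was higher in the Cd8-detected than in the Treg class, and the myeloid interval overlapped both. Without those mixed barcodes the order in cKO was the same. In WT the myeloid class then stood at 162 CPM (137 to 190), above the Treg interval. The Cd8-detected class, at 146 CPM (112 to 188) in WT, then overlapped both. Itgae was highest in the Treg class in cKO. Without the mixed barcodes it had 3 UMIs in the Cd8-detected and 5 in the myeloid class of cKO, so no order between them could be read. Itgb2 was highest in the myeloid class, at 403 CPM in cKO and 367 CPM in WT, and did not differ beyond counting error between the Treg and Cd8-detected classes in either library. Itga4 in cKO was lowest in the Treg class (33.1 CPM), with the myeloid (57.7 CPM) and Cd8-detected classes (67.9 CPM) not apart beyond counting error. Without the mixed barcodes the Cd8-detected class, at 96.3 CPM, stood above the myeloid class, at 62.5 CPM. In WT it did not differ beyond counting error between the Treg (201 CPM) and Cd8-detected classes (196 CPM) and was lower in the myeloid class (108 CPM). The 36 cKO cells of the NK class, of which 38.9% also held 6 or more UMIs of the Treg genes, had Itgb1 at 217 CPM (179 to 261), Itga4 at 87.7 CPM (64.2 to 117), Itgal at 151 CPM (119 to 188), Itgb7 at 156 CPM, Itgb2 at 145 CPM and Itgav at 45.8 CPM. Itgae was found in 0 of these 36 cells, which allows a share of up to 8.33%.

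Genes around the integrins were read from lists of known genes. Of 35 genes that activate integrins or link them to the cytoskeleton, 31 averaged 5 CPM or more in the Treg class, none was 2-fold apart, and the median log2 ratio was 0.14 (-0.37 to 0.84). Of 7 integrin ligand genes measured, 1 was 2-fold higher and none 2-fold lower in cKO, beside 0.991% and 1.2% of all genes tested. It was Icam1, the LFA-1 ligand, at 177 CPM (171 to 182) in cKO and 82.9 CPM (80.00 to 85.8) in WT. Of 28 other homing and adhesion genes measured, 3 were 2-fold higher and 3 2-fold lower in cKO, beside 0.991% higher and 1.2% lower of all genes tested. Among those higher was the chemokine receptor gene Ccr2 (411 CPM in cKO and 132 CPM in WT; 1.60). Those lower were Cd226, an adhesion and costimulatory receptor (16.99 CPM in cKO and 47.1 CPM in WT; -1.24), and the chemokine receptors Ccr6 (-1.17) and Cxcr4 (-1.07). Cxcr4 lay outside the limit of 4 genes for a list and was added after its value was seen.

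Of 15 genes known to bear on integrin transcription in T cells, 14 were measured in the Treg class. Of these, 1 was 2-fold higher and none 2-fold lower in cKO, beside 0.991% and 1.2% of all genes tested. It was Klf2, a factor that promotes S1pr1 transcription in T cells, at 247 CPM (240.3 to 253) in cKO and 87.3 CPM (84.3 to 90.3) in WT (log2 ratio 1.45). The list median was 0.12. In the Cd8-detected and myeloid classes none of the 14 and 13 measured genes of this list was 2-fold apart. Among other integrin genes in the myeloid class, Itgam, the alpha M chain of myeloid cells, stood at 253 CPM (239 to 267) in cKO and 265 CPM (245 to 287) in WT, and Itgax at 43.6 CPM (37.8 to 49.9) in cKO and 84.1 CPM (72.7 to 96.7) in WT. Itga5, the fibronectin receptor chain, stood at 68.8 CPM (61.5 to 76.6) in cKO and 54.7 CPM (45.6 to 65.1) in WT, Itgb5 at 68.6 CPM in cKO and 80.6 CPM in WT, and Itga9 at 6.88 CPM in cKO and 8.19 CPM in WT. Of the 9 measured, 1 stood 2-fold higher and none 2-fold lower in cKO, beside 0.935% and 0.981% of the genes tested in that class. It was Itga1, at 32.9 CPM (27.99 to 38.5) in cKO and 10.3 CPM (6.63 to 15.4) in WT. These myeloid values cover the whole class, with the barcodes that also held Cd3 UMIs, and were not read without those barcodes.

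Likeness of pattern was taken as Pearson's r of log2(CPM + 5) over the 6 sums of class and library with at least 50 cells, among 6528 genes that reached 20 CPM in any of them. The points share 2 libraries and their depths, so the values describe these sums alone. Each gene named is picked for the highest r among 6528 genes on 6 points, where high values are easily reached. The size of a change does not enter r: Mrps33 ran from 90.4 to 118 CPM over the 6 sums, and Itga4 from 33.1 to 201 CPM. The 3 genes nearest to Itga4 were Mrps33 (0.993), Mapkap1 (0.974) and mt-Atp8 (0.970), those nearest to Itgae Ufd1 (0.998), Cdipt (0.967) and Vasp (0.967), and those nearest to Itgav Apol9b (0.998), Neb (0.996) and Zbtb38 (0.996). For Itgb7 they were Crlf3 (0.991), Sdcbp2 (0.989) and Mepce (0.989), for Itgb1 Mrpl55 (0.981), Bscl2 (0.980) and Uggt1 (0.969), for Itgal Ube2d1 (0.947), Cyc1 (0.941) and Cox5a (0.940) and for Itgb2 Ctsa (0.999), Arih2 (0.998) and Atp6v0d1 (0.997).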

How the data were processed

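The deposited matrices hold raw UMI counts per gene and barcode, which the authors made with Cell Ranger 5.0.1, per the file headers, on mm10, per the submitters' processing notes; companion files give gene identifiers, symbols and barcodes and no measurement. The sources used here name no annotation release, intron setting or removal of doublets, and no doublet caller was run. Barcodes with at least 500 genes and under 10% mitochondrial UMIs were kept. UMIs were summed by class and library and scaled to CPM, with exact Poisson intervals for levels, exact conditional binomial intervals for ratios and Clopper-Pearson intervals for shares, all for counting error only. Because UMIs tag transcript ends, no length scaling was applied. Thinning drew 4000 UMIs from each cell without replacement; classes were set before thinning. The text names the 7 chains, other integrin genes of at least 5 CPM, up to 4 members of each other list at least 2-fold apart in the Treg class, and the 3 nearest genes of each chain; some homing genes that met this rule are not reported here. The members and lists were chosen with earlier results of these data known. Positions come from GENCODE M21, which matched 32158 of 32285 identifiers. Itga4 and Itgae each overlap a gene on the opposite strand, and Itgav overlaps 2; none overlaps a gene on its own strand. Calculations used Python 3.11.15 with numpy 2.4.6, scipy 1.17.1 and pandas 2.3.3, and were tested on simulated data.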

Additional observations from a re-analysis of the deposited data

Results flagged for a closer look

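Itgae stood on opposite sides in different classes. Its log2 ratio was 0.9998 in the Treg class (higher in cKO), -0.61 in the Cd8-detected class and -1.10 in the myeloid class (lower in cKO), each outside counting error. The difference between classes was not tested, and each class has 1 library for each group. Without barcodes that also held Treg UMIs or Cd3 UMIs, Itgae had 3 UMIs in cKO and 2 in WT in the Cd8-detected class and 5 UMIs in cKO and 0 in WT in the myeloid class, so the 2 lower values rested on barcodes with transcripts of another class.

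Itgal stood at a log2 ratio of -0.0754 in the Treg class and 0.47 in the Cd8-detected class, again on opposite sides outside counting error; the difference was not tested. The Treg value turned to 0.037 in cells of 5000 to 10000 UMIs.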

How the results depend on the processing

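Directions of Itga4, Itgb1, Itgb7, Itgae, Itgav and Itgb2 in the Treg class held under all 16 alternatives, with log2 ratios of -2.68 to -2.40 for Itga4, 0.94 to 1.08 for Itgae and -0.90 to -0.64 for Itgav. Treg values that moved past counting error follow, with values of any class that lay outside counting error and turned. In the myeloid class, values within counting error also changed sign, for Itgb1 in 4, Itgal in 3 and Itgb7 in 1 of 12 alternatives. A further 14 of 84 alternative log2 ratios in the Cd8-detected and 10 of 84 in the myeloid class moved past counting error. Among them were those of Itga4, at -0.26 and -0.097 in barcodes of 5000 to 10000 UMIs, and Itgal, at -0.30 in myeloid barcodes without 3 Cd3 UMIs. In cells of 5000 to 10000 UMIs the log2 ratios were -2.68 for Itga4, -0.43 for Itgb1, 0.28 for Itgb7, -0.90 for Itgav and 0.33 for Itgb2 in the Treg class, Itgal turned to 0.037, and Itgb7 (-0.19) and Itgb2 (-0.13) turned in the Cd8-detected class and Itgae (1.37) in the myeloid class. Scaled without mitochondrial, ribosomal protein, globin, Malat1, Xist and Y-linked genes, the Treg values were -2.56 for Itga4, -0.43 for Itgb1, 0.30 for Itgb7, -0.76 for Itgav, -0.17 for Itgal and 0.19 for Itgb2. With equal weight for each cell they were -2.57 for Itga4, 0.32 for Itgb7 and -0.79 for Itgav. A pseudocount of 1 CPM gave -2.56 for Itga4. Without cycling cells Itgb7 stood at 0.30 and Itgav at -0.79. With the Treg class set on thinned cells Itgb1 stood at -0.43. The genes left out of the scaling held 23.8% of the Treg-class UMIs in cKO and 28.7% in WT. With that scaling the median log2 ratio of all genes tested in the Treg class also moved, from -0.0202 to -0.105. The cause of the chains' moves was not tested. The number of chains 2-fold higher in the Treg class was 0, but 1 (Itgae) with a pseudocount of 1 CPM, equal weight for each cell, all deposited barcodes, at least 10 Treg UMIs, barcodes in exactly 1 class, or no Cd8a or Cd8b1 UMI; the last was chosen after seeing the data. The number 2-fold lower in the myeloid class was 1, but 0 in cells of 5000 to 10000 UMIs, with equal weight for each cell, at a minimum mean of 20 CPM and without barcodes with 3 Cd3 UMIs. In the last of these Itgae stood at 0.38 (from 5 UMIs in cKO and 0 in WT, so the added 5 CPM set its size), and without the 5% of cells with the most UMIs at 0.21. Without barcodes with 6 Treg UMIs, the number 2-fold lower in the Cd8-detected class was 1 in place of 2, Itgav turned to 0.042 and Itgb2 to -0.039. These settings for the Cd8-detected and myeloid classes were chosen after seeing the data. Without thinning, the difference in shares of Treg-class cells (cKO minus WT, in percentage points) turned to -1.76 for Itgb7, -3.35 for Itgb2 and -9.90 for Itgal with Itgb2; the median depth was greater in WT. No paired analysis was possible because each group has 1 library, and for the same reason no replicate could be left out.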

Other observations

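Kept barcodes in no class numbered 434 in cKO and 285 in WT. In them Itga4 stood at 87.9 CPM (78.5 to 98.2) in cKO and 187 CPM (174 to 201) in WT, Itgav at 148 CPM (136 to 162) in cKO and 262 CPM (246 to 278) in WT, Itgae at 29.9 CPM (24.5 to 36.1) in cKO and 26.8 CPM (21.96 to 32.4) in WT and Itgb7 at 275 CPM (259 to 293) in cKO and 249 CPM (234 to 265) in WT. Cells of the Treg class held UMIs of 2.93 ± 1.15 of the 7 chains in cKO and 3.28 ± 1.20 in WT at 4000 UMIs (mean ± SD over cells of 1 library each), and at least 5 chains in 8.35% and 14.8% of cells.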
